A study of Mus musculus with 2 samples.

Results

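The odorant receptor genes of mouse chromosome 11 whose locus starts below 60 Mb (mm9) are described here. They were chosen by position alone. The rule also leaves out Olfr43 by name, but this removed no entry of the region. The rule uses no measured value, but it was set with earlier results of these data known. The deposited table holds 49 such entries among 1112 Olfr entries. RNA came from the olfactory epithelium of adult C57BL/6 mice, the nasal tissue that contains the olfactory sensory neurons. The 2 samples form 1 group, since both are titled and genotyped as wild type, but the description field of the second sample reads 3bko, a name that the labels do not explain. The table gives a single FPKM value per entry (a fragment count scaled by gene model length and sequencing depth), which belongs to neither sample by name. Every row names both wt and 3bko in its 2 sample columns. A value may thus come from either or from both together, and cannot be taken as wild type alone. Each value below is therefore the authors' single value, with no replicates, no SD and no test, and differences between genes or clusters could not be set against replicate error.

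Odorant receptors are G protein-coupled receptors of the ciliary membrane of olfactory sensory neurons. Their genes arose largely by tandem duplication and lie in clusters, and a mature neuron typically transcribes a single receptor gene from a single allele. The coding sequence usually sits in a single exon, preceded by noncoding exons that hold the 5′ untranslated region. In RNA from whole tissue, the value of a receptor follows both the number of neurons that chose it and the amount of RNA in each of them, and these cannot be told apart here. The table holds Olfr entries only, so the tissue could not be checked against marker genes of neurons or of supporting cells.

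With less than 1 Mb allowed between neighbours, the 49 genes fell into 4 clusters, named here by their rounded position. The 49 Mb cluster holds 18 entries from Olfr1396 to Olfr1380 (chromosome 11, 48851162 to 49378360). The 51 Mb cluster holds Olfr1378, Olfr1377, Olfr51 and Olfr54 (50782522 to 50841447). The 52 Mb cluster holds Olfr1373, Olfr1372-ps1 and Olfr1371 (51958095 to 52027489). The 59 Mb cluster holds 24 entries from Olfr30 to Olfr225 (58268417 to 59427727), of which the last 3, namely Olfr222, Olfr223 and Olfr225, lie 0.729 Mb beyond the other 21. All 49 are class II receptors, the class that makes up most of the mammalian repertoire.

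The coding sequences of these receptors show how the clusters are related. The codons for the Asp-Arg-Tyr triplet at the inner end of the third membrane helix, a hallmark of odorant receptors, are given in capitals within 30 bases of the coding strand for sets of members that share this stretch and for Olfr222 (GENCODE M21 transcripts, GRCm38).
Olfr1384, Olfr1383 and Olfr1372-ps1: gtgatggctttcGACCGCTATgtcgctgtg
Olfr1392, Olfr10, Olfr1386 and Olfr1385: gtgatggcttttGACCGCTATgctgctgtg
Olfr1381, Olfr1380 and Olfr1373: acaatggctataGATCGCTATgctgctgtg
Olfr1382 and Olfr1371: gcaatggctataGATCGCTATgctgctgtg
Olfr320, Olfr319, Olfr318 and Olfr316: ttcatgtcctatGACAGGTATatagccatc
Olfr222: gccatggctctgGACCGCTACgtggccatc

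All 3 genes of the 52 Mb cluster thus carry a stretch that also occurs, letter for letter, in the 49 Mb cluster. The 5 genes of the 59 Mb cluster shown here carry other versions. In full coding sequence the median identity was 78.2% over the 153 pairs within the 49 Mb cluster and 78.6% between the 49 Mb and 52 Mb clusters. It was 61.1% between the 49 Mb and 59 Mb clusters, where the closest pair reached 68.7%. Within the 59 Mb cluster it was 61.1% too, and that cluster holds genes of several receptor families. The Asp-Arg-Tyr triplet was found once in 41 members. It was absent from the other 8, which are Olfr54, Olfr331, Olfr179, Olfr317, Olfr313, Olfr312, Olfr311 and Olfr225. Of these 8 members 7 had an FPKM below 1, against 10 of the 41 with the triplet. Over all entries with a sequence, 147 of 237 without the triplet and 377 of 865 with it were below 1, and the medians were 0.648 and 1.24. Members without the triplet largely share families, so they are not separate observations.

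The members had higher values than the table as a whole. Their median FPKM was 2.49, with quartiles of 0.648 and 5.80, against 1.09 over all 1112 entries (quartiles 0.377 and 3.00). Of the 49 members, 32 (65.3%) reached an FPKM of 1, against 52.5% of all entries. The level of 5 was reached by 15 members (30.6%), against 14.3% of all entries. At 10 or more there were 3 members (6.12%), near the 5.40% of all entries. No member was listed at 0, and the lowest was Olfr225 at 0.0777. The authors' status is NOTEST for 7 of the 49 members, against 203 of the 1112 entries. These 7 are Olfr1390, Olfr1378, Olfr323, Olfr320, Olfr313, Olfr311 and Olfr225, all with an FPKM of 0.222 or less. With 4.41% of the table's entries, the members held 6.93% of its total FPKM. On the log2(FPKM + 0.1) scale, on which the change of low genes is understated, the median of the members lay 1.17 above that of the other entries. It lay 0.96 above that of the other class II entries and 0.69 above that of the 34 entries on chromosome 11 above 60 Mb, whose median FPKM was 1.51. These differences were not tested, because the table holds no replicates and genes are not replicates of each other.

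**Figure D1:**
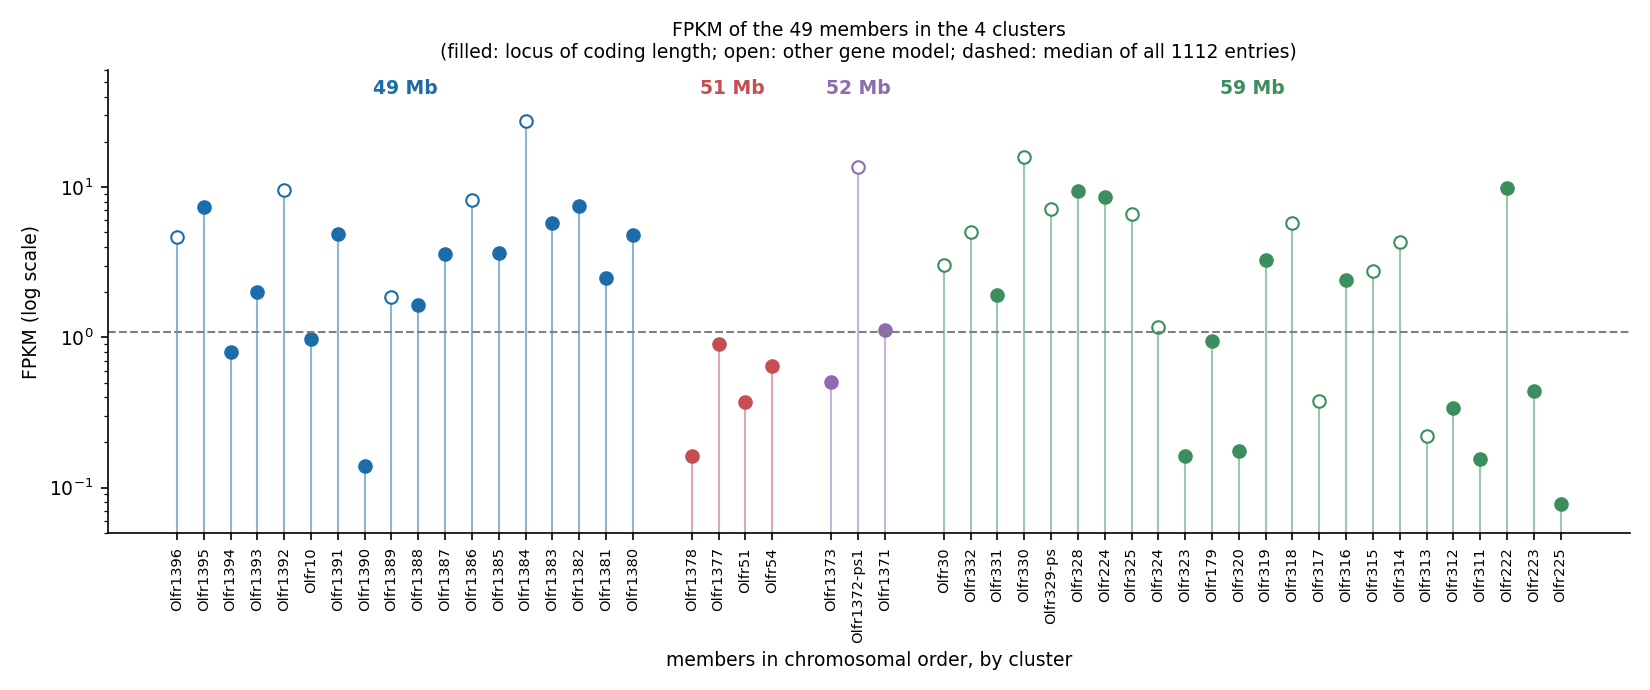
Each point is the FPKM (log axis) of a member, in chromosomal order within the 4 clusters, with filled points for loci as long as a coding sequence, open points for other gene models and a dashed line at the median of all 1112 entries (1.09). The 4 genes of the 51 Mb cluster lie below the line, while 15 of 18 genes of the 49 Mb cluster have an FPKM of 1 or more and the 59 Mb cluster spans 0.0777 to 15.8.

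The clusters differed in level. The 49 Mb cluster had the highest median FPKM, 4.14 (range 0.139 to 27.5), with 15 of 18 entries at 1 or more (83.3%). The 59 Mb cluster had a median of 2.58 (0.0777 to 15.8), with 15 of 24 at 1 or more (62.5%). The 3 genes of the 52 Mb cluster had a median of 1.13, with values far apart. All 4 genes of the 51 Mb cluster were below 1, with a median of 0.510. The median of the 49 Mb cluster lay 0.65 above that of the 59 Mb cluster on the log2(FPKM + 0.1) scale. This order was not kept in every set of genes. Among members with at least 80% of their coding 50-base words found in no other Olfr transcript, the difference turned to -0.16, with 8 entries left in the 49 Mb cluster (median FPKM 2.72) and 10 in the 59 Mb cluster (2.90). That selection leaves out Olfr1384 and all 6 genes of the MOR275 family, described below. The part of shared sequence in the change was not tested. With the MOR275 genes alone left out, the difference was 1.87.

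**Figure D2:**
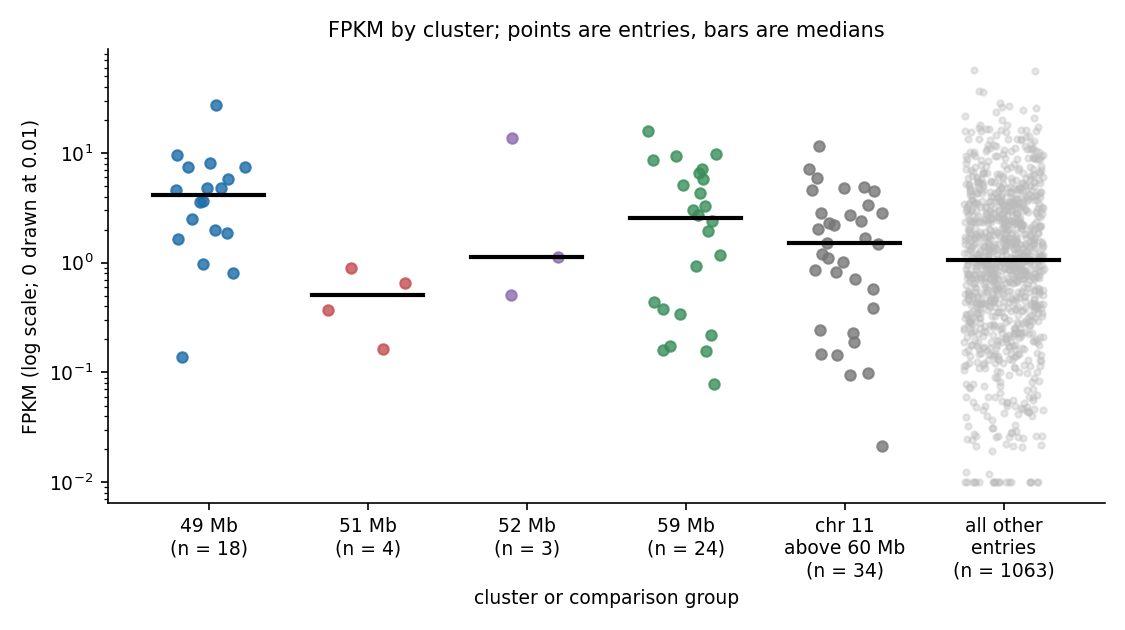
Points are the FPKM (log axis) of single entries and black bars are medians, for the 4 clusters, for the 34 other entries of chromosome 11 and for all 1063 other entries, which include those 34. The bar of the 49 Mb cluster stands at 4.14 and that of the 59 Mb cluster at 2.58, but their points overlap over most of their range.

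The 49 Mb cluster consists mainly of the MOR256 family (MOR families group mouse receptors by sequence), which supplies 14 of its 18 entries. Olfr1384 (49327120 to 49328153) had the highest FPKM of all members, 27.5, the 6th highest of the table. It alone held 13.4% of the members' summed FPKM. The next values in the cluster were Olfr1392 (49106799 to 49107824) at 9.64, Olfr1386 (49283556 to 49284683) at 8.17, Olfr1382 (49348689 to 49349624) at 7.52 and Olfr1395 (48961761 to 48962714) at 7.41. Olfr1384 was thus far above its cluster, while the genes that followed it lay close together. Low values were few. Olfr1390 (49154036 to 49154971) was lowest at 0.139, between the MOR256 genes Olfr1391 at 4.84 and Olfr1389 at 1.85. All of its 50-base words are unique among Olfr transcripts, but its status is NOTEST and the error of so low a value is unknown. Olfr1394 had 0.802 and Olfr10 had 0.982.

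Apart from the 5 highest and the 3 lowest, the entries of the 49 Mb cluster ranged from 1.64 (Olfr1388) to 5.74 (Olfr1383). The 4 entries not assigned to MOR256 lie at the low-coordinate end, apart from Olfr1380 at the other end. Olfr1380 had no single MOR family among its RefSeq synonyms, but its coding sequence was 98.1% identical to that of the MOR256 gene Olfr1381. Olfr1396 (MOR276) had 4.65, on a locus that the table draws across 97728 bp (48851162 to 48948889), the longest of all members. The gene model behind its value is thus unlike those of its neighbours. Of the 18 genes, 17 lie on the plus strand of GENCODE, Olfr1396 being the exception. Neighbours were no closer in level than other pairs. The median absolute difference on the log2(FPKM + 0.1) scale was 1.56 over 17 neighbouring pairs and 1.40 over all 153 pairs.

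MOR256 genes in the 49 Mb cluster had a median FPKM of 3.61, and 12 of 14 were at 1 or more. The same family contributes 5 genes to the 59 Mb cluster, where the median was 0.441 and a single gene, Olfr222, exceeded 1. Outside the members, 29 MOR256 entries had a median of 3.18, with 4.34 over 11 on chromosome 13, 2.36 over 17 on chromosome 17 and 26.0 for Olfr15 on chromosome 16. The family's 2 genes in the 52 Mb cluster, Olfr1372-ps1 and Olfr1371, had 13.6 and 1.13. Olfr1373 of that cluster, at 0.509, was left out because it had no single MOR family, although it was 98.6% identical to the MOR256 gene Olfr1381. The family median was thus lowest in the 59 Mb cluster, without a test of these differences.

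The 51 Mb cluster was low throughout. Olfr1377 had an FPKM of 0.903, Olfr54 had 0.648, Olfr51 had 0.371 and Olfr1378 had 0.162. The first, the third and the fourth of these form the MOR129 family, which has no other entry in the table, and Olfr54 is its MOR126 neighbour. Their 4 loci are all of coding length. The coding identity among the 3 MOR129 genes was 85.3% to 89.4%, and 68.3% to 79.4% of their 50-base words were unique among Olfr transcripts.

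The 52 Mb cluster holds 1 high gene and 2 lower ones. Olfr1372-ps1 (51968378 to 51971409), named as a pseudogene, typed as a transcribed pseudogene in RefSeq and as a transcribed unprocessed pseudogene in GENCODE, had an FPKM of 13.6, the third highest of all members. Its neighbours Olfr1371 (52026554 to 52027489) and Olfr1373 (51958095 to 51959030), both protein coding, had 1.13 and 0.509. The closest relative of the pseudogene among all Olfr entries was Olfr1383 of the 49 Mb cluster, at 97.3% identity over its 934 bases, and Olfr1383 had an FPKM of 5.74. Only 61.5% of the pseudogene's 50-base words were unique among Olfr transcripts. Its locus in the table spans 3032 bp, so its FPKM may cover more than the receptor-like sequence. The span can include introns, and the gene model is not named.

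Near-identical genes in different clusters had unequal values. Olfr1371 and Olfr1373 are nearly the same in coding sequence as Olfr1380, Olfr1381 and Olfr1382 of the 49 Mb cluster. Over 936 aligned coding bases, the 5 genes differed at 57 positions. The stretch of 60 bases with the most differences is base 874 to base 933, counted from the first base of the start codon, with differing positions in capitals.
Olfr1382: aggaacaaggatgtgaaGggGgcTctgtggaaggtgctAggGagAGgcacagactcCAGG
Olfr1380: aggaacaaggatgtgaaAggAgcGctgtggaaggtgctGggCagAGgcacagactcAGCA
Olfr1381: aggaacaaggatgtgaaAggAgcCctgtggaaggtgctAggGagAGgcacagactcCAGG
Olfr1371: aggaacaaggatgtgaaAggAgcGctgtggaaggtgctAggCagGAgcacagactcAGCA
Olfr1373: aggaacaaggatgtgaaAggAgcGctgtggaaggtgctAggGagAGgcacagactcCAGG

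Even here only 11 of 60 positions vary. The FPKM was 7.52 for Olfr1382, 4.77 for Olfr1380 and 2.49 for Olfr1381, all of the 49 Mb cluster, and 1.13 for Olfr1371 and 0.509 for Olfr1373, of the 52 Mb cluster. Every gene of the set in the 49 Mb cluster was above both in the 52 Mb cluster. Olfr1381 and Olfr1373 are the most similar pair of all members, at 98.6% identity, and differed 4.90-fold. Olfr1381 and Olfr1380, at 98.1%, differed 1.91-fold, and Olfr1380 and Olfr1371, at 97.8%, differed 4.23-fold.

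The set also differs in annotated transcripts. GENCODE gives Olfr1382 4 exons and a 5′ untranslated region of 789 nt, Olfr1380 and Olfr1381 2 exons each with 561 and 575 nt, and Olfr1371 and Olfr1373 1 exon each with no untranslated region. The share of unique 50-base words was 48.6% for Olfr1382, 29.9% for Olfr1380, 16.7% for Olfr1381, 33.4% for Olfr1371 and 40.4% for Olfr1373. The sources used here do not say how reads matching several of these genes were assigned, so the single values are uncertain, and the part of shared reads in their differences was not tested.

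The 59 Mb cluster holds blocks of related genes with contrasting levels. Its highest block is MOR275, whose 6 genes lie side by side from Olfr331 to Olfr325 (58315100 to 58395379), and which has no other entry in the table. Olfr330 (58342431 to 58348327) had an FPKM of 15.8, Olfr328 had 9.45, Olfr224 had 8.63, Olfr329-ps had 7.21, Olfr325 had 6.60 and Olfr331 had 1.93. The family median was 7.92 and all 6 were above the median of all entries. These 6 genes held 55.0% of the summed FPKM of the 59 Mb cluster, and without them its median fell from 2.58 to 1.06, with 9 of 18 entries at 1 or more. Olfr329-ps carries a pseudogene name but is protein coding in RefSeq and GENCODE.

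**Figure D3:**
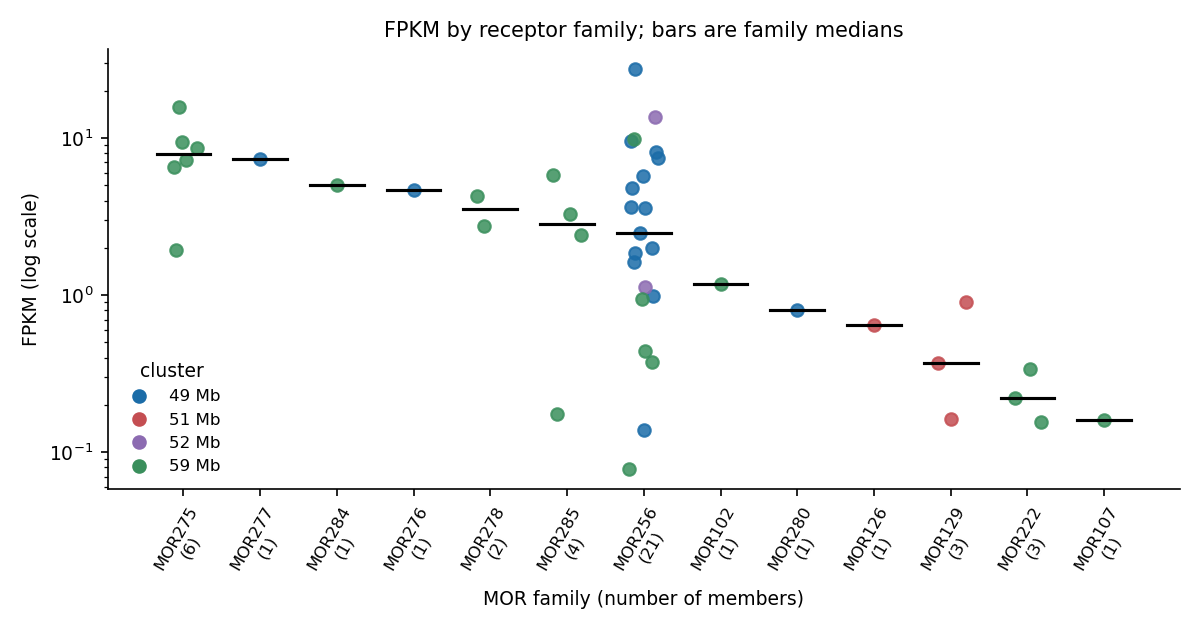
Points are the FPKM (log axis) of members by MOR family, coloured by cluster, with bars at family medians and the number of members in parentheses, leaving out the 3 members without a single MOR family. MOR275 stands highest with a median of 7.92, MOR256 spans 0.0777 to 27.5, and all genes of MOR129, MOR222, MOR107, MOR126 and MOR280 lie below 1.

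The lowest block is MOR222. Olfr312 had an FPKM of 0.341, Olfr313 had 0.222 and Olfr311 (58654618 to 58655544) had 0.156. These 3 genes are neighbours with 94.7% to 95.9% coding identity to each other, and a single MOR222 entry elsewhere had 1.85. Between the blocks lie the MOR285 genes, which had 5.80 (Olfr318), 3.29 (Olfr319), 2.40 (Olfr316) and 0.176 (Olfr320), and the MOR278 genes Olfr314 at 4.29 and Olfr315 at 2.75. Olfr323 (58438575 to 58439546), the table's only MOR107 entry, had 0.161. Olfr30, which has no single MOR family, had 3.05. Olfr332 and Olfr324, each the only member of its family here, had 5.06 and 1.18.

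The 3 genes of the distal block, all MOR256, were unlike each other. Olfr222 (59384284 to 59385240) had an FPKM of 9.85, the second highest of the 59 Mb cluster, while Olfr223 had 0.441 and Olfr225 (59426468 to 59427727) had 0.0777. All of their 50-base words were unique among Olfr transcripts, a measure of how far reads could be shared with other receptors. Olfr225 is a polymorphic pseudogene in GENCODE and protein coding in RefSeq. The other MOR256 genes of the cluster, Olfr179 and Olfr317, had 0.940 and 0.377 at 94.4% identity to each other. In the 59 Mb cluster neighbours were closer in level than other pairs, with a median absolute difference of 1.61 over 23 neighbouring pairs and 2.10 over all 276 pairs on the log2(FPKM + 0.1) scale.

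The 59 Mb cluster also holds near-identical pairs with unequal values, of which 2 were picked after their values were seen. Olfr318 and Olfr320, at 96.2% coding identity, had FPKM values of 5.80 and 0.176, a ratio of 33.0, the widest among pairs with at least 85% identity. Olfr320 has the status NOTEST in the authors' table, and the error of so low a value is unknown. Olfr330 and Olfr331, at 94.97%, had 15.8 and 1.93, a ratio of 8.18. Their identity counts gaps between annotated coding sequences of 948 and 975 nt. The 60 gap-free bases in which each pair differs most are shown, with differing positions in capitals.
Olfr318 (bases 736 to 795): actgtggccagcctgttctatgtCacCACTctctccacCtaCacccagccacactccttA
Olfr320 (bases 736 to 795): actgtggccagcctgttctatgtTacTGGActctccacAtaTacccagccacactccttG
Olfr330 (bases 318 to 377): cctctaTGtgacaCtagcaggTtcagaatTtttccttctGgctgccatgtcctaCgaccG
Olfr331 (bases 330 to 389): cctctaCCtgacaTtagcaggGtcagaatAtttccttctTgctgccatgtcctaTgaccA

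Both pairs differ at 8 of these 60 positions. Over all compared coding bases, Olfr318 and Olfr320 differ at 35 of 921, and Olfr330 and Olfr331 at 22 of 948. The stretches shown were chosen for their differences, so by that choice they are richer in them than the rest. Olfr318 and Olfr320 have 2 annotated exons each, while Olfr330 has 2 and Olfr331 has 1, without an untranslated region. The locus of Olfr330 in the table spans 5897 bp and that of Olfr331 957 bp, so the 2 values may cover different parts of a transcript. In the 49 Mb cluster Olfr1392, Olfr1393 and Olfr10, at 95.2% to 96.7% identity, had FPKM values of 9.64, 2.00 and 0.982. Olfr1386 and Olfr1385, at 95.9%, had 8.17 and 3.63.

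Over all pairs of members, those of similar sequence had closer values by the median ratio, but not equal ones. The 20 pairs with at least 95% coding identity, formed by 18 genes, had a median ratio of the higher to the lower FPKM of 2.71 (1.54 to 33.0), and 17 of them were over 2-fold. The 32 pairs from 85% to 95% had a median ratio of 2.24 (1.09 to 18.7), and the 1124 less similar pairs had 4.45. Pairs share genes and are not independent, and no test was made. The part of shared reads in these ratios was not tested either.

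**Figure D4:**
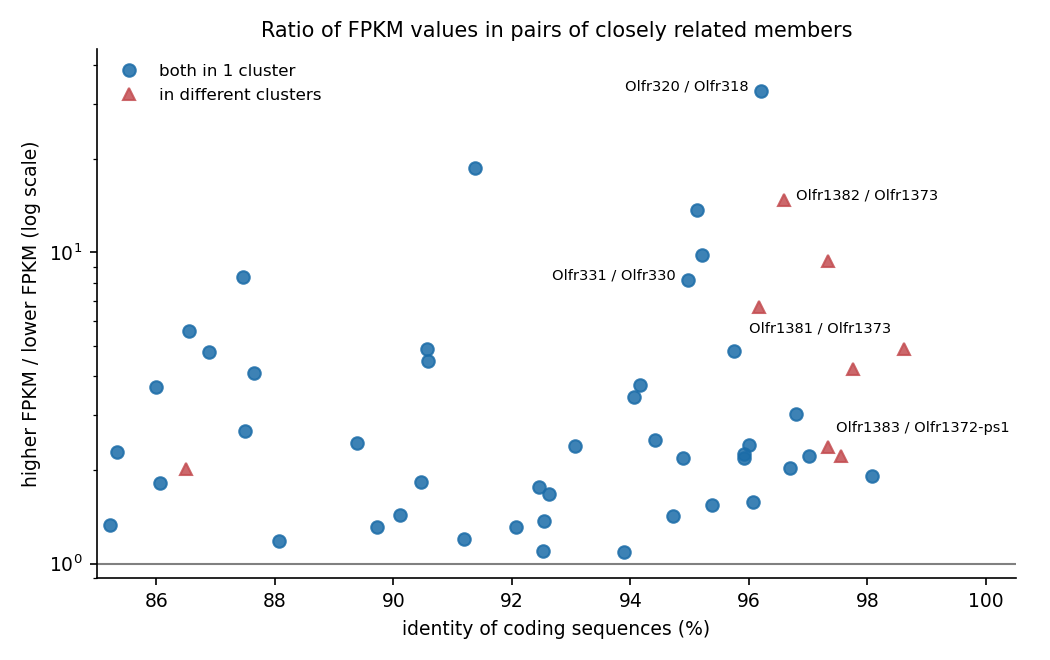
Each point is a pair of members with at least 85% coding identity, placed by identity (horizontal axis, percent) and by the ratio of the higher to the lower FPKM (log axis), with circles for pairs of 1 cluster and triangles for pairs of different clusters. The ratio reaches 33.0 for Olfr318 and Olfr320, and the 98.6% identical pair Olfr1381 and Olfr1373 lies at 4.90.

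Annotated transcript features were set beside the levels as a description. Across 45 members with an annotated 5′ untranslated region (30 to 1520 nt), Spearman's rho of its length with FPKM was 0.38, and Pearson's r with log2(FPKM + 0.1) was 0.36. Within the 49 Mb and 59 Mb clusters rho was 0.28 (18 genes) and 0.24 (23 genes), and across 1027 entries of the table it was 0.34. With 3′ untranslated region length rho was -0.06 over the same 45 members, and with coding GC content it was -0.09 over 48. The median 5′ untranslated region was 757 nt in the 49 Mb cluster, 469.5 nt in the 59 Mb cluster and 351.5 nt in the 51 Mb cluster, and it was 0 for both coding genes of the 52 Mb cluster, against 266.5 nt over all entries, with genes that lack one counted at 0. Members with 4 or more exons had a median FPKM of 7.21 over 9 genes, those with 3 exons 3.34 over 10, those with 2 exons 2.49 over 27 and those with 1 exon 1.13 over 3. Across the 49 members rho of exon number with FPKM was 0.24, and it was 0.04 within the 49 Mb cluster and 0.22 within the 59 Mb cluster. The single-exon members are Olfr331, Olfr1371 and Olfr1373. The 120 single-exon entries of the whole table had a median of 0.0891.

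The gene model used for the FPKM moved with the level among the members. A locus was counted as of coding length where it was as long as the coding sequence of any GENCODE transcript of the gene, with or without the stop codon. The 17 members with another locus length had a median FPKM of 5.06, against 1.38 for the 32 with a locus of coding length. Over all entries these medians were 1.17 (270 entries) and 1.02 (832 entries). In the 49 Mb cluster they were 8.17 over 5 genes and 3.59 over 13, and in the 59 Mb cluster 4.29 over 11 and 0.940 over 13. Olfr1384, Olfr1372-ps1 and Olfr330, the 3 members at 10 or more, all have the longer kind. The part of the gene model in these levels was not tested.

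Sequence upstream of the genes was examined in RefSeq's windows of 250 bases before to 50 bases after each annotated start (GRCm38.p6), which exist for 42 members. For 27 of these the annotated start is the start codon itself, and 34 windows contain a start codon, so most windows do not show a promoter. The palindrome CCCNNGGG, the core of sites of the O/E (Olf1/EBF) factors found in many receptor promoters, occurred on either strand in 1 of 42 member windows (2.38%) and in 2.90% of 930 Olfr windows. The homeodomain motif TAATTA occurred in 8 (19.0%) against 18.6%, and the looser TAATNA, which includes it, in 27 (64.3%) against 66.2%. Over all windows the members thus held these letters about as often as all entries. Among windows without a start codon, the palindrome was found in 1 of 8 of the members and in 9.49% of 158 over all entries. In the same windows TAATTA was found in 0 of 8 against 19.6%, and TAATNA in 3 of 8 (37.5%) against 69.6%, so both were less frequent in these few member windows. The member is Olfr330, the highest gene of the 59 Mb cluster, where it begins 129 bases before the annotated start. The 250 bases before the annotated start are shown for Olfr330 and for its MOR275 neighbour Olfr224, on the strand of the gene and with the palindrome in capitals.
Olfr330 (chr11:58534826-58535075, minus strand): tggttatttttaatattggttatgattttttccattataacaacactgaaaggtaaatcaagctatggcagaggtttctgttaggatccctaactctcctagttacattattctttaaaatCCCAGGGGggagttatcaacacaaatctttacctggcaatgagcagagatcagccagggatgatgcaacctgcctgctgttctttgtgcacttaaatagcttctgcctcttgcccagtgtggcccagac
Olfr224 (chr11:58570569-58570818, minus strand): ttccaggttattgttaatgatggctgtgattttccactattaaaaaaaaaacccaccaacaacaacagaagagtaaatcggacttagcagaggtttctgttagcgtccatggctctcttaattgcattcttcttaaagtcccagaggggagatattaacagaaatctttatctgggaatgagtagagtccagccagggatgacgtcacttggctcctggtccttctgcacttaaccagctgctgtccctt

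These upstream sequences were 68.8% identical, the highest among the 28 pairs of such windows, and the next pair reached 55.1%. The FPKM was 15.8 for Olfr330 and 8.63 for Olfr224. The windows of the other 4 MOR275 genes contain a start codon, so their upstream sequence was not compared.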

How the data were processed

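The authors deposited a table of FPKM values, 1 per Olfr entry, with a locus on mm9 and a test status, per the file headers. TopHat2, Bowtie2 and Cuffdiff are named in the submitters' processing notes, without versions or roles. The sources used here name neither the gene annotation nor the handling of reads that match several genes. The deposited table ties its value to neither sample, so no values per sample, replicate error or paired fit could be computed, and depth is unknown. Locus starts count from 0, and 1 was added.

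Clusters were runs of loci with gaps under 1 Mb. Entries were joined to RefSeq (GRCm38.p6; 47 members by symbol, 2 by an older symbol) and GENCODE M21 (all 49), used for names, types and sequence and not for mm9 coordinates. MOR families came from RefSeq synonyms. Features came from the longest transcript with a coding sequence. Identity is that of edit-distance alignments of coding sequences (edlib 1.3.9.post1), in place of the planned protein comparison, for which no protein table was used here. Statistics used Python 3.11.15 with pandas 2.3.3 and scipy 1.17.1, and functions were tested on simulated data. The members and lists were chosen with earlier results of these data known.

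The text names the 5 highest and 3 lowest entries of clusters of 10 or more, all entries of smaller clusters, pseudogenes and the 3 most similar pairs. Other members were named after their values were seen. Some shared stretches of coding sequence are not reported here.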

Additional observations from a re-analysis of the deposited data

How the results depend on the processing

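No replicate spread exists, so an alternative was taken to hold where a median or count stayed within 1.5 times, or a log2 difference within the same ratio, and kept its sign. Of 57 alternatives 46 held, 10 moved and 1 reversed. The difference between the 49 Mb and 59 Mb clusters (0.65) reversed to -0.16 among entries with at least 80% unique words, where the 49 Mb median was 2.72. Among entries with a short locus of whole codons (31 members, a simpler rule than the match to GENCODE in the report) it was 1.35, with medians of 1.64 over the members and 1.43 in the 59 Mb cluster. Without MOR275, an alternative chosen after seeing the data, it was 1.87 and the 59 Mb median was 1.06. With gaps up to 2 Mb the 49, 51 and 52 Mb clusters merged, with a median of 2.49. At an FPKM of 5, 15 members counted in place of 32. Apart from the merging and the lower count, the cause was not tested. The lead of the members over other entries (1.17) kept its sign under each alternative run, but its size varied. It was 0.63 among entries with a short locus of whole codons, 0.87 without MOR275 and 1.34 among entries with at least 80% unique words. No member of the 52 Mb cluster had 80% unique words, so that median was not computed. No paired analysis was possible because the table holds 1 value per gene, and the planned replicate leave-outs could not be made. The error of low values could not be given, since sequencing depth is unknown.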
